A study of Mus musculus with 11 samples.

Results

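The medial and lateral pieces of the mandibular arch at embryonic day 9.7 (E9.7) were compared in ICR mouse embryos, with 1 Affymetrix array per piece. These are the arrays titled as medial and as lateral tissue of this stage, 2 of the 11 arrays of the series. No mutation, transgene or treatment is given for any group. The medial piece is described, for E10.5, as a cut from the distal end of the arch where the lingual swellings meet, and the lateral piece as the bulk of what was left. The same labels at E9.7 are taken here to mean the same cut. RNA was pooled from 40 embryos, so a value is an average over a pool and the spread between embryos cannot be seen. The E10.5 arrays, 3 medial and 3 lateral, are used as independent samples of the same contrast. Nothing in the labels says that they came from separate pools, so p-values measure the spread between arrays, which may be technical.

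The mandibular arch is the lower part of the first pharyngeal arch. It holds neural crest mesenchyme around a core of mesoderm, covered by ectoderm outside and endoderm inside. Along it, endothelin, BMP and FGF signals from the epithelium set up nested domains of transcription factors. Hand genes mark the distal cap near the midline, Dlx genes mark nested domains along the arch, and Barx1 marks the oral territory where molars form. Hedgehog signals from the epithelium act on the mesenchyme beneath it.

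Values are log2 signals after quantile normalization over all 11 arrays, and a difference is medial minus lateral on that scale, so that 1 is a 2-fold difference. A gene is its probe set of highest mean and was counted where at least 1 of the E9.7 arrays reached 4.86, the 50th percentile of all values, called the filter level below. With 1 array per side there is no test at E9.7 and no replicate check of any single difference. Both E9.7 arrays had median deposited signals near those of most others (5.23 and 5.24), and they fell in the same group of arrays by spiked-in control probe sets. That group also held medial replicate 2 and lateral replicate 1 of E10.5, and a further group held medial replicate 3 with lateral replicates 2 and 3. Medial replicate 1 of E10.5 fell with medial replicate 1 of E11.5, in a group without lateral arrays. The groups were defined from the data, by a cut into 4, and are treated below as batches. Medial replicate 1 of E10.5 and medial replicate 1 of E11.5 had far lower medians, 2.37 and 2.47.

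Of 11252 genes counted at E9.7, 123 (1.09%) exceeded the lateral signal by 2-fold or more and 75 (0.667%) exceeded the medial signal by as much, 198 (1.76%) in all. The median difference was 0.012, and the quartiles were -0.0962 and 0.134. Differences of at least 4-fold were found for 11 genes in the medial direction and 15 in the lateral direction. Between arrays of the same group, 2-fold differences numbered 3 to 57 in 4 pairs of normal median signal and 166 to 281 in 3 pairs that involve a low one. For 27 of the medial genes and 26 of the lateral genes the dimmer array lay under the filter level, so that the size of the difference rests on dim signal. The threshold divides a continuum: Ahr (1.001) and Ppp1r3c (1.001) lay just inside it and S100a6 (0.996) just outside, and on the lateral side Gas1 (-1.001) and Sparcl1 (-1.001) lay inside and Fat3 (-0.999) outside. Where a 2-fold gene had at least 2 probe sets at the filter level, all of them pointed the same way for 45 of 45 medial genes and 26 of 27 lateral genes, and all were 2-fold apart for 25 and 12. Genes described below of which a further such probe set lay well under 2-fold were Cgnl1 (0.12), Nkx2-3 (0.47), Nr2f2 (-0.15), Cxcl12 (-0.39), Rgmb (-0.4) and Gas1 (-0.48).

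**Figure D1:**
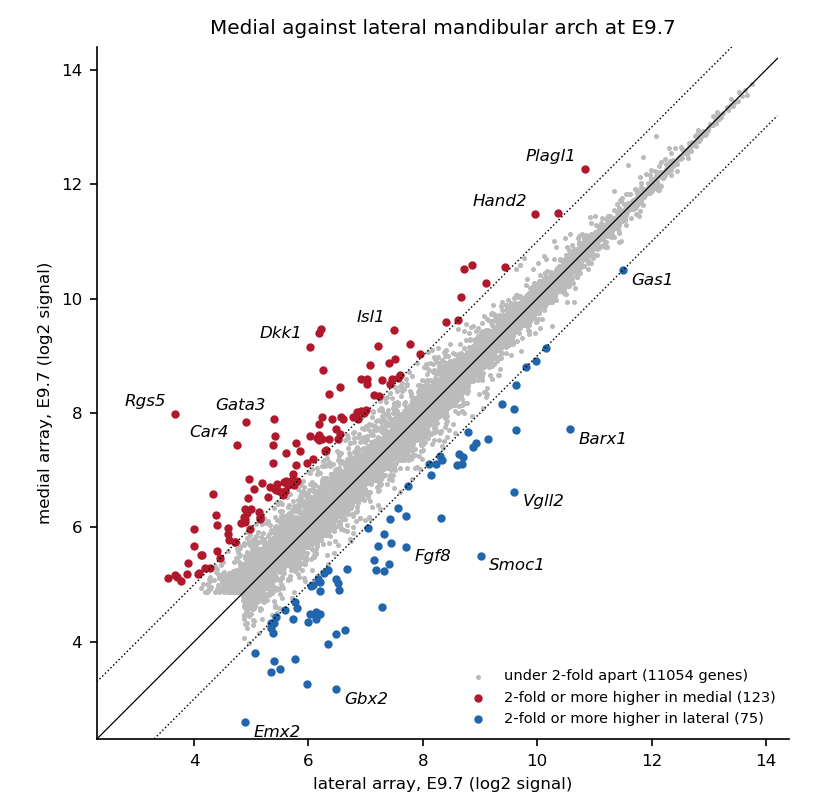
Log2 signal of each of 11252 counted genes on the medial array (vertical axis) against the lateral array (horizontal axis) at E9.7. The solid line marks equal signal and the dotted lines 2-fold differences; the 123 red points lie above and the 75 blue points below them, with Rgs5 and Smoc1 farthest out on either side.

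The largest medial excess was that of Rgs5, which encodes a regulator of G-protein signalling and is widely used as a pericyte marker. Its log2 signal was 7.99 in medial and 3.66 in lateral tissue, a difference of 4.32. The lateral value was under the filter level, and a further probe set of the gene differed by 2.02. At E10.5 the medial arrays read 9.20, 9.10 and 9.51 and the lateral arrays 3.64, 4.02 and 4.08, with no overlap (limma adjusted p = 1.57e-06).

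Next came Pmp22, a gene of myelin and of epithelial junctions, with 9.46 in medial and 6.22 in lateral tissue. Ndnf, a secreted neurotrophic factor, read 9.39 and 6.19. Dkk1, a secreted Wnt antagonist needed for head formation, read 9.16 and 6.03. Each of these signals was well above the filter level on both arrays, and the differences were 3.24, 3.20 and 3.13. Others among the 15 highest were Car4, a membrane carbonic anhydrase (2.68), Tmem178 (2.24), Gadd45g, a stress and growth arrest gene (2.17), Col1a1 (2.06), Ednrb (1.98), Cgnl1, a tight junction protein (1.97), and Dgkk, a diacylglycerol kinase (1.95). Hand1, Gata3, Foxf1 and Isl1, described below, complete that set.

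In the lateral direction the largest difference was that of Smoc1, a secreted matrix protein that modulates BMP signals. It read 5.50 in medial and 9.01 in lateral tissue (-3.51). Its E10.5 values were 6.72, 7.59 and 7.19 in medial and 9.10, 8.95 and 9.09 in lateral tissue, again without overlap (-1.88 ± 0.19, limma adjusted p = 0.000881; SEs are those of the limma fit over all 6 groups). Vgll2, a cofactor of TEAD factors known from the arches and from muscle, read 6.62 and 9.59 (-2.97), and its relative Vgll3 3.70 and 5.77 (-2.06). Csn3, the gene of a milk casein, read 4.61 and 7.29 (-2.67). Fbln5, an elastic fibre protein, differed by -2.09 and Lrig1, an inhibitor of growth factor receptors, by -2.04. The other genes of the 15 lowest were transcription factors, signals and non-coding transcripts that follow below.

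The distal patterning factors were the list with the largest median difference. Of 9 counted members, 6 were 2-fold or more higher in medial tissue and 0 were 2-fold lower, beside 1.09% and 0.667% of all counted genes. The list median was 1.51, beside 0.012 for all genes. The same shares are the background of every later count of list members past 2-fold, and 2.82% (medial) and 1.8% (lateral) that of every count called at E10.5. Hand1, a bHLH factor of the distal cap, read 7.85 in medial and 4.91 in lateral tissue. Its relative Hand2, which acts downstream of endothelin, read 11.48 and 9.97. Signals of Hand1 thus differed by 2.94 and those of Hand2 by 1.51, and all 3 Hand2 probe sets differed by 1.38 to 1.53.

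Gata3, a zinc finger factor of the distal arch, read 7.90 in medial and 5.4 in lateral tissue (2.50), and Gata2 read 7.90 and 6.42 (1.49). Isl1, a LIM homeobox gene of distal epithelium and mesoderm, read 9.44 and 7.49 (1.95). Msx2, a homeobox target of BMP, read 10.60 and 8.87 (1.73). The remaining members were closer together: Msx1 differed by 0.90, Tbx3 by 0.61 and Tbx2 by -0.18, and Alx4 (4.71 and 4.31) was under the filter level on both arrays.

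At E10.5 the medial and lateral arrays were again apart for Hand1, with 7.60, 8.53 and 9.05 against 4.76, 5.62 and 5.28 (3.17 ± 0.36, limma adjusted p = 0.00128). Gata3 read 7.54, 7.50 and 7.29 against 4.54, 4.24 and 4.32 (3.08 ± 0.12, limma adjusted p = 6.94e-06). Isl1 read 9.16, 9.31 and 9.69 against 6.66, 6.45 and 6.68 (2.80 ± 0.17, limma adjusted p = 5.45e-05). No arrays overlapped for these genes. For Gata2 they did, with 6.63, 6.87 and 7.14 in medial and 6.11, 6.74 and 6.71 in lateral tissue (0.36 ± 0.21, limma adjusted p = 0.456). With the mean of all its probe sets Gata2 was called (0.56, limma adjusted p = 0.0342).

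**Figure D2:**
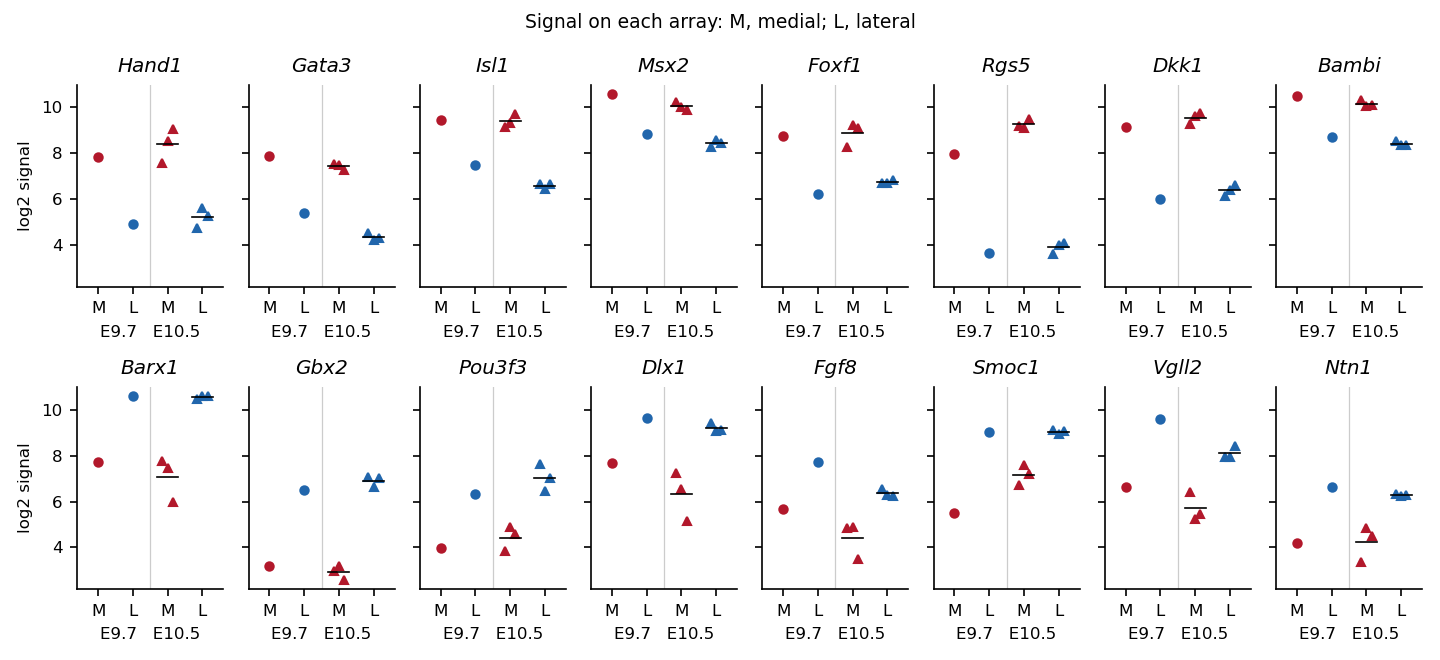
Log2 signal on every E9.7 array (circles, 1 per side) and E10.5 array (triangles, 3 per side, with the mean as a bar) for 8 genes higher in medial tissue (M, red; upper row) and 8 higher in lateral tissue (L, blue; lower row). In each panel the E10.5 arrays of both sides stay apart, in the direction of the E9.7 pair.

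Forkhead genes were found on both sides. Foxf1, a target of hedgehog signals in mesenchyme, read 8.75 in medial and 6.25 in lateral tissue (2.50), and Foxf2 read 5.99 and 4.59 (1.4). Foxc1, a forkhead factor of jaw and cranial mesenchyme, went the other way with 7.40 and 8.88 (-1.48), as did Foxl2 with 5.26 and 6.35 (-1.09). Of 11 counted forkhead genes, these 2 in each direction passed 2-fold, and the list median was 0.25. At E10.5 Foxf1 (2.13 ± 0.24, limma adjusted p = 0.00128), Foxf2 (2.06 ± 0.18, adjusted p = 0.000315) and Foxc1 (-1.73 ± 0.28, adjusted p = 0.00782) were called in the same directions. Foxl2 was not called in the main fit (-0.94, limma adjusted p = 0.0808). It was called with centring (limma adjusted p = 0.0423), with averaged probe sets (0.0494) and with the replicate number as a block (0.0180).

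Other medial transcription factor genes were Tlx1 (8.46 and 6.56, 1.90), a homeobox gene of arch mesenchyme, and Alx1 (6.04 and 4.4, 1.65), a homeobox gene of frontonasal and jaw mesenchyme. Id4, an inhibitor of bHLH factors and a target of BMP, differed by 1.49. Nkx2-3, a homeobox gene of pharyngeal endoderm, differed by 1.03, Irx3 by 1.07 and Hey2 by 1.12. Zfpm1, which encodes a partner of GATA factors, differed by 1.57, and Gata6 by 1.12 at a signal of 5.19 and 4.07. Tlx1, Zfpm1 and Gata6 are in no list and were chosen after their values were seen.

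Proximal and oral patterning factors lay in the opposite direction. The list so named also holds Dlx genes of the ventral arch. Of 17 counted members, 9 were at least 2-fold higher in lateral tissue, beside 0.667% of all counted genes, and 0 were 2-fold higher in medial tissue. Their median was -1.01. Barx1, the homeobox gene of the molar field, read 7.72 in medial and 10.58 in lateral tissue (-2.86). Gbx2, a homeobox gene known from the midbrain-hindbrain boundary and the arches, read 3.17 and 6.49 (-3.31). Pou3f3, a POU factor of the proximal arch, read 3.96 and 6.34 (-2.38). The medial signals of Gbx2 and Pou3f3 were under the filter level, whereas Barx1 was bright on both arrays.

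The distal-less genes differed among themselves. Dlx1 read 7.70 in medial and 9.63 in lateral tissue (-1.93), Dlx3 7.47 and 8.93 (-1.46), Dlx4 4.33 and 5.4 (-1.07) and Dlx2 8.80 and 9.81 (-1.01). Dlx5 (-0.78) and Dlx6 (-0.60) stayed under 2-fold. These 6 genes sit in linked pairs in the genome, and all 6 differences had the same sign. Lhx6, a LIM homeobox gene of oral mesenchyme, differed by -1.54 and Emx2 by -2.31, the latter at 2.59 and 4.90.

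Not every member of the list took part. Lhx8 (-0.36), Gsc (-0.40), Pitx1 (-0.60) and Eya1 (-0.07) lay within 2-fold, and the TALE homeobox genes Meis1 (0.61) and Meis2 (0.48) were higher in medial tissue. Shox2 (3.61 and 4.72) and Sim2 (2.82 and 4.67) were under the filter level on both arrays and were not counted.

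For the lateral factors the E10.5 arrays gave the same direction. Barx1 read 7.75, 7.48 and 6.0 in medial and 10.45, 10.60 and 10.58 in lateral tissue (-3.47 ± 0.38, limma adjusted p = 0.00108). Gbx2 read 2.99, 3.19 and 2.59 against 7.07, 6.62 and 7.03 (-3.98 ± 0.18, limma adjusted p = 1.37e-05). Dlx2 read 7.28, 7.57 and 7.67 against 9.57, 9.85 and 9.96 (-2.29 ± 0.15, limma adjusted p = 7.56e-05). None of these sets overlapped. Of the 17 counted members, 11 were called higher in lateral and 1 higher in medial tissue, beside 1.8% and 2.82% of all genes tested at E10.5, and the lateral count was 9 to 13 under the other settings on normalized or centred values.

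Lateral factors outside that list included Lhx2, a LIM homeobox gene of the muscle core (3.26 and 5.97, -2.72), Tfap2b (5.03 and 6.51, -1.48) and the nuclear receptor gene Nr2f2 (8.16 and 9.38, -1.22). Tfap2b, Nr2f2 and Sox9, the cartilage factor (7.26 and 8.29, -1.04), were the 2-fold members among 15 counted genes of neural crest mesenchyme, whose median was -0.27. The broad mesenchyme gene Prrx1 read 10.91 and 10.77 (0.14). Six2 (-1.07) and Osr1 (-1.08), both known from craniofacial mesenchyme, were just past 2-fold. Sox9 was called at E10.5 as well (-1.98 ± 0.33, limma adjusted p = 0.00907).

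Genes of pharyngeal mesoderm and its muscle progenitors formed the list with the lowest median, -1.24 over 9 counted genes. Vgll2 and Lhx2, given above, belong to it, with Ebf1, a factor of early myogenic and other mesoderm (4.49 and 6.20, -1.72), Tcf21 (6.34 and 7.57, -1.24), Msc, the gene of musculin (4.59 and 5.8, -1.21), and Fgf8 (-2.05), which is made mainly by the ectoderm. These 6 were 2-fold higher in lateral tissue. Isl1 alone was 2-fold higher in medial tissue, and Tbx1 (-0.45) and Mef2c (0.26) lay between. The muscle regulators Myf5 and Myod1 were under the filter level on both arrays. The list mixes genes of mesoderm, ectoderm and mesenchyme. At E10.5, Ebf1 read 3.92, 3.84 and 3.41 in medial and 6.61, 6.28 and 6.47 in lateral tissue (-2.73 ± 0.17, limma adjusted p = 7.43e-05). Vgll2 read 6.41, 5.25 and 5.47 against 7.93, 7.96 and 8.42 (-2.39 ± 0.28, limma adjusted p = 0.0013), so that the arrays of both genes were apart.

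Windows of 250 bases upstream of transcription starts are shown for 4 of these genes, because they hold core motifs of the factor families described above. Capitals mark each match, on either strand, to the homeodomain core TAATTA, the GATA core AGATAA, its variant core TGATAA and the E-box CATCTG. The genes were picked after the search. Sequences are RefSeq's, build GRCm38.p6, 5′ to 3′ along the gene's strand, and where 2 motifs overlap the capitals run on.
Rgs5 (chr1:169655251-169655500, plus strand): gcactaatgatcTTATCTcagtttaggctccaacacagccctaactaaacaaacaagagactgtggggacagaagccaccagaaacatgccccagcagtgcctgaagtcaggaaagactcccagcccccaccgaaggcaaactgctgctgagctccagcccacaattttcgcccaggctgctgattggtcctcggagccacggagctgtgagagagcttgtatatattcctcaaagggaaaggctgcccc
Isl1 (chr13:116309689-116309938, minus strand): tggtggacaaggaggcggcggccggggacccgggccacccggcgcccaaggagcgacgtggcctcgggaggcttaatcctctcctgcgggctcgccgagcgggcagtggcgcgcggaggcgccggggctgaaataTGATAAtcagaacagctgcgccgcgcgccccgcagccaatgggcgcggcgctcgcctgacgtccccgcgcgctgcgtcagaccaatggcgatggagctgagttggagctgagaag
Hand2 (chr8:57320733-57320982, plus strand): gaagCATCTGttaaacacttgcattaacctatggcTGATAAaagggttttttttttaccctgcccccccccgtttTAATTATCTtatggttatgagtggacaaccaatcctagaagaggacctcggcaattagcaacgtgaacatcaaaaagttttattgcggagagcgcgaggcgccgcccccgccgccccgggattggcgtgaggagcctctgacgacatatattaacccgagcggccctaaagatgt
Dlx6os1 (chr6:6869534-6869783, minus strand): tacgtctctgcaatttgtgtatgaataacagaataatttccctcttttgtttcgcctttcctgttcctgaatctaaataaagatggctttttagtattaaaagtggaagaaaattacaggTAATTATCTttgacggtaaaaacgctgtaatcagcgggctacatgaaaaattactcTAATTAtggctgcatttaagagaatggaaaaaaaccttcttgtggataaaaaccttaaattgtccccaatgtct

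For the counts of matches, windows from 250 bases before to 50 after the start were found for 89 of the 123 medial genes and 53 of the 75 lateral genes, 114 and 72 windows with alternative starts. TAATTA was present in 3.51% of medial and 6.94% of lateral windows, against 2.36% of the 11662 windows of all counted genes and 5.29% of all 32851 windows. CATCTG was present in 15.8% and 20.8%, against 11.1% and 17.2%. The GATA core AGATAA was present in 7.89% and 8.33%, against 5.98% and 11.2%, and its variant TGATAA in 4.39% and 5.56%, against 4.06% and 9.05%. The forkhead core GTAAACA was present in 2.63% and 1.39%, against 2.33% and 3.65%, and the GLI core GACCACCCA in 0% and 0%, against 0.206% and 0.253%. A TATAAA box was present in 14.9% and 15.3%, against 6.83% and 13.6%. The median number of CG dinucleotides was 16 and 18, against 21 and 7. In medial windows every motif except the GLI core was thus more frequent than in windows of counted genes, some only slightly. In lateral windows every motif except the GLI and forkhead cores was. The GLI core is too rare for its absence to be informative in so few windows. Against all windows the shares went both ways. Windows of 2-fold genes also held fewer CG dinucleotides than those of counted genes. Whether this accounts for the higher shares was not tested. Windows of a gene overlap, and a match is only a match of letters.

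Non-coding transcripts next to patterning genes stood among the 2-fold set. Of 232 counted non-coding transcripts, 8 were 2-fold apart, beside 1.76% of all counted genes. Dlx6os1, which overlaps Dlx6, read 6.17 in medial and 8.33 in lateral tissue (-2.15). Dlx1as, which overlaps Dlx1, read 3.53 and 5.51 (-1.98), and Dlx4os, which overlaps Dlx4, read 4.53 and 6.13 (-1.60). Each lay on the side of the coding gene it overlaps. Foxl2os lies next to Foxl2 (-2.34 beside -1.09), Pantr1 next to Pou3f3 (-1.34 beside -2.38) and Fendrr next to Foxf1 (1.88 beside 2.50).

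In 5 of the 6 pairs whose coding neighbour was counted, that neighbour was 2-fold apart on the same side, and Dlx6 was the exception at -0.60. Among all 178 counted non-coding transcripts with a counted neighbour, 6 neighbours were 2-fold apart. Each of these 6 transcripts was measured by 1 probe set. Where a transcript overlaps its neighbour, signal from the 2 genes cannot be told apart here, since the probes' strands were not used.

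Signalling genes were split by pathway. Of 13 counted BMP genes, 4 were 2-fold or more higher in medial tissue, with a list median of 0.77. They were the ligand genes Bmp4 (8.88 in medial and 7.41 in lateral tissue, 1.47) and Bmp5 (7.56 and 6.15, 1.41), the pseudoreceptor Bambi (10.52 and 8.72, 1.80) and the inhibitory Smad6 (8.60 and 7.46, 1.14). Smad7 (0.77), Bmp2 (0.84) and the extracellular modulator Bmper (0.96) were higher by less than 2-fold. The 3 members 2-fold higher in lateral tissue were a receptor and matrix modulators: Bmpr1b (6.20 and 7.71, -1.51), Smoc1, given above, and Smoc2 (3.80 and 5.06, -1.26). Nbl1, a secreted antagonist of the DAN family that is in no list, differed by -1.62.

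Bambi and Bmp4 kept this direction at E10.5. Bambi read 10.31, 10.05 and 10.13 in medial and 8.54, 8.36 and 8.39 in lateral tissue (1.74 ± 0.13, limma adjusted p = 0.000199). Bmp4 read 9.30, 9.77 and 9.85 against 7.52, 7.82 and 7.69 (1.96 ± 0.18, limma adjusted p = 0.000383). Neither gene's arrays overlapped. Of the 13 genes, 4 were called higher in medial and 4 higher in lateral tissue at E10.5, the fourth lateral gene being Bmper, which had the opposite sign at E9.7.

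In the hedgehog pathway, the ligand gene Shh read 8.95 in medial and 7.52 in lateral tissue (1.44). The receptor and target Ptch1 differed by 1.15 and the effector and target Gli1, at 7.55 and 6.52, by 1.04. These 3 of 11 counted genes passed 2-fold, together with the co-receptor gene Gas1 on the lateral side (-1.001). Gli2 (-0.01), Gli3 (0.08) and Smo (0.08), which transduce the signal, differed little, and the list median was 0.08. Cdon, also a co-receptor, differed by -0.47 and Hhip, an inhibitor induced by the pathway, by 0.61. Shh was called at E10.5 (1.62 ± 0.14, limma adjusted p = 0.000315).

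Of 16 counted FGF genes, 3 were 2-fold higher in lateral and 0 in medial tissue, while 5 had a difference above 0, and the median was -0.23. Fgf8, the ligand of the oral ectoderm, read 5.66 in medial and 7.71 in lateral tissue (-2.05). The feedback phosphatase gene Dusp6 read 8.06 and 9.59 (-1.52) and the feedback inhibitor gene Spry1 7.29 and 8.63 (-1.34). Further feedback genes and targets had smaller differences of the same sign, among them Spry2 (-0.67), Etv4 (-0.62) and Etv5 (-0.61). The receptor gene Fgfr2 was higher in medial tissue by 0.80. Spry1 (-1.45 ± 0.13, limma adjusted p = 0.000417) and Dusp6 (-1.32 ± 0.17, adjusted p = 0.00233) were called at E10.5.

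Of 24 counted Wnt genes, 2 were 2-fold higher in medial tissue. Besides Dkk1, this was its relative Dkk2, which read 6.32 and 5.0 (1.32). Notum, a secreted inhibitor, differed by 0.88. Rspo2, which encodes an amplifier of Wnt signals, was the 1 member 2-fold higher in lateral tissue (7.67 and 8.79, -1.12), and the antagonists Sfrp2 and Sfrp1 differed by -0.92 and -0.18 and the ligand Wnt5a by -0.66. The feedback target Axin2 differed by -0.37 and the effector Lef1 by 0.56. The list median was 0.33. Dkk1 at E10.5 read 9.27, 9.63 and 9.74 in medial and 6.15, 6.40 and 6.62 in lateral tissue, without overlap (3.15 ± 0.16, limma adjusted p = 2.18e-05). Dkk2 was not called there in the main fit (0.61, limma adjusted p = 0.139), but the call turned on the setting. Without medial replicate 1, an array of low median, it was called (0.85, limma adjusted p = 0.00588). The same held with the control-probe group as a block (0.80, limma adjusted p = 0.00453).

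Of 9 listed endothelin genes, 8 had a named probe set and 1 passed 2-fold. This was the receptor gene Ednrb, which is known from melanocyte and glial precursors (5.98 and 3.99, 1.98). The other receptor gene, Ednra, is not among the 8. The ligand gene Edn1 differed by -0.33 and the converting enzyme gene Ece1 by 0.18. In the retinoid list, Cyp26a1, whose enzyme degrades retinoic acid, was the 1 of 8 counted genes past 2-fold (4.48 and 6.03, -1.55). The synthesis genes Aldh1a1, Aldh1a2 and Aldh1a3 were under the filter level on both arrays. None of 9 Notch genes passed 2-fold, with Jag1 the highest at 0.78 and Dll1 the lowest at -0.62. Of 11 TGF-beta genes, Tgfb1 did (6.93 and 5.73, 1.20), and Tgfb2 differed by 0.94. Cyp26a1 was called at E10.5 (-2.26 ± 0.12, limma adjusted p = 2.45e-05).

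Guidance genes were represented by a ligand and its receptors on opposite sides. Netrin-1, encoded by Ntn1, read 4.20 in medial and 6.63 in lateral tissue (-2.43). Its receptor genes Unc5c (9.20 and 7.78, 1.43) and Unc5b (8.60 and 6.92, 1.68) were higher in medial tissue, while Dcc, also a netrin receptor gene, differed by 0.01. Unc5b is in no list. Rgmb (-1.1) and the ephrin gene Efnb2 (9.13 and 10.15, -1.02) were the other 2-fold members among 28 counted guidance genes, and Nrp1 and Sema6d were both at 0.95. At E10.5 Ntn1 read 3.35, 4.85 and 4.50 in medial and 6.33, 6.25 and 6.28 in lateral tissue (-2.05 ± 0.34, limma adjusted p = 0.00926). Unc5c read 8.78, 9.08 and 9.08 against 7.49, 7.37 and 7.36 (1.57 ± 0.13, limma adjusted p = 0.000233), so that both genes were apart again.

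The chemokine genes Cxcl14 (7.30 and 5.61, 1.69) and Cxcl12 (8.49 and 9.63, -1.14) went in opposite directions. The receptors of Cxcl12, Cxcr4 (-0.05) and Ackr3 (0.20), differed little. Among growth genes, Plagl1, an imprinted zinc finger gene, read 12.27 and 10.83 (1.43), and Igf2, an imprinted growth factor gene, 12.85 and 12.09 (0.77). Plagl1 was the 1 of 12 counted imprinted genes past 2-fold. It was called at E10.5 (1.59 ± 0.14, limma adjusted p = 0.000315), and so was Igf2 (0.80 ± 0.10, adjusted p = 0.00233). On the values as deposited the E10.5 sign of Igf2 turned (-0.15), and that of Plagl1 did not (0.64). Igf2 was not alone in this: the sign also turned for other genes called higher in medial tissue, among them Ednrb (-0.06), Tek (-0.45), Tnc (-0.23) and Msx1 (-0.22). The deposited values leave medial replicate 1 of E10.5 unscaled, at a median of 2.37, which lowers every medial mean at E10.5. From centred to deposited values, Tek went from 0.68 to -0.45 and Cxcl12 from -0.57 to -1.70. A turned sign is thus not particular to these genes.

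Matrix genes were divided, with 3 of 37 counted genes 2-fold higher on each side and a median of 0.23. Beside Ndnf, the medial members were the collagen gene Col1a1 (7.44 and 5.38, 2.06) and the tenascin gene Tnc (5.16 and 3.67, 1.49). Beside Fbln5, the lateral members were the collagen genes Col8a2 (3.66 and 5.4, -1.73) and Col23a1 (7.17 and 8.34, -1.17). The partner chain of Col1a1, encoded by Col1a2, differed by -0.32, and Col3a1 by 0.01. Col1a1 had a further probe set that differed by 1.14. At E10.5 its values were 7.51, 8.65 and 7.81 in medial and 7.51, 7.35 and 7.13 in lateral tissue, which nearly meet at 7.51 (limma adjusted p = 0.429, and 0.0117 with the control-probe group as a block).

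Of 17 counted adhesion genes, the integrin gene Itga8 (6.80 and 5.57, 1.23) and the protocadherin gene Pcdh7 (7.12 and 5.98, 1.14) were higher in medial tissue. Pcdh19 (7.11 and 8.69, -1.58) was higher in lateral tissue, and its 3 probe sets differed by -1.65 to -1.27. Cavin2, a caveolar coat gene, read 5.29 and 4.19 (1.1), while Cavin1 (0.53), Cav1 (-0.23) and Cav2 (0.24) stayed under 2-fold.

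Markers of epithelium and vessels were higher in the medial piece. Such a shift in bulk tissue cannot tell more cells of a type from more RNA per cell. Of 23 counted epithelial genes, 20 were above 0 and 3 were 2-fold higher, with a median of 0.47: the simple keratin genes Krt8 (10.03 and 8.67, 1.36) and Krt18 (10.27 and 9.11, 1.17) and the basal keratin gene Krt14 (7.63 and 6.55, 1.08). Cdh1 differed by 0.92 and Epcam by 0.57. The summed signal of the list was 12.8 in medial and 12.1 in lateral tissue on the log2 scale. At E10.5 10 of the 23 genes were called higher in medial tissue and 0 lower, and 7 were called without lateral replicate 3, 7 with probe sets averaged and 15 with the control-probe group as a block. Krt8 there read 9.20, 8.90 and 9.04 against 7.84, 7.46 and 7.82, without overlap (1.35 ± 0.14, limma adjusted p = 0.000778).

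All 16 endothelial genes were counted and all 16 were higher in medial tissue, by 0.14 (Sox7) to 1.05 (Tek), with a median of 0.73. The angiopoietin receptor gene Tek was the 1 member past 2-fold (7.34 and 6.29). Summed signal was 11.8 and 11.1. At E10.5 the median was 0.31 and 3 of the 16 were called higher in medial tissue. That count was 0 without lateral replicate 2, 1 without medial replicate 3, lateral replicate 1 or lateral replicate 3, and 6 with the control-probe group as a block. Among 13 pericyte and smooth muscle genes, 8 were counted, and Rgs5 stood apart from the others. The pericyte receptor gene Pdgfrb differed by 0.32 and Acta2 by 0.16, whereas Kcnj8, Abcc9 and Higd1b were under the filter level on both arrays. Red cell genes differed by -0.16 to 0.39. The part of epithelial and endothelial content in the other medial differences was not tested.

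Pharyngeal endoderm genes were also above 0 in 7 of 7 counted cases, with a median of 0.63, Foxa2 at 0.85 and Foxa1 at 0.65. The thyroid genes Nkx2-1, Pax8, Tg and Tshr were under the filter level on both arrays. So were 14 of 17 heart muscle genes, including Myl7, Myh6 and Nppa. Tnni1, a slow troponin gene that the list shares with skeletal muscle, read 5.89 and 4.59 (1.30).

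Few markers of nerve or of neighbouring arches were seen. Of 15 neuronal genes with a probe set 4 were counted, none 2-fold apart, and Neurod1 (3.40 and 3.40) and Nefl (4.34 and 4.62) were under the filter level. The counted genes were Isl2 (0.94), Gap43 (0.70), Elavl3 (0.01) and Tubb3 (-0.31). At E10.5, 2 of these 4 were called higher in medial and 0 higher in lateral tissue, beside 2.82% and 1.8% of all genes tested. Without medial replicate 1 that medial count was 1. The glial precursor gene Sox10 read 5.85 and 5.72. Among the 5 counted glial genes, Ngfr was the lowest (-0.94) and Erbb3 the highest (0.31). At E10.5, 2 of the 5 were called higher in lateral and 0 higher in medial tissue. Of 8 Hox genes, which mark the second and more posterior arches, 7 were under the filter level in both pieces, among them Hoxa2 (2.53 and 2.74). Macrophage genes were counted in 3 of 12 cases, with differences of 0.34 to 0.41. The 19 cell cycle genes ranged from -0.46 to 0.35 with a median of -0.02, and 4 sex-linked genes from -0.18 to 0.07.

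Stress and hypoxia genes gave isolated differences. Jun, an immediate early gene, read 7.93 in medial and 6.23 in lateral tissue (1.70), and its other probe set at the filter level differed by 1.15. The immediate early genes Junb (0.31), Egr1 (0.34), Ier2 (-0.22) and Atf3 (-0.01) were closer, and the list median was 0.30. At E10.5 Jun read 7.66, 7.35 and 7.65 in medial and 7.49, 7.51 and 7.30 in lateral tissue, with overlap (limma adjusted p = 0.720). Egln3, a hypoxia-induced hydroxylase gene, differed by 1.12, while Vegfa was at 0.53 and Slc2a1 at 0.14.

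**Figure D3:**
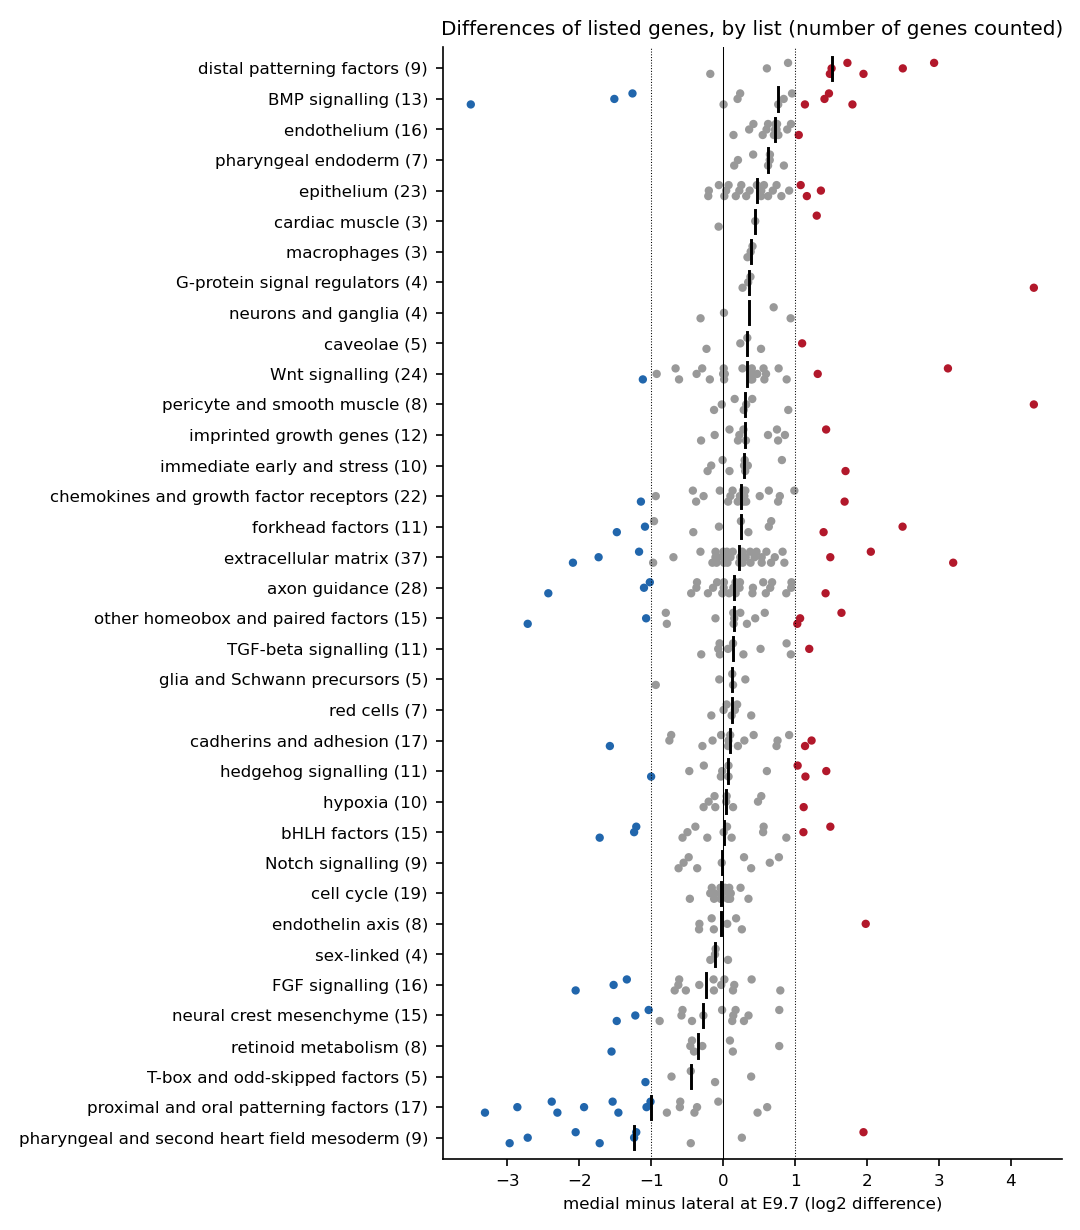
Medial minus lateral log2 difference at E9.7 for every counted gene of the lists with at least 3 counted genes. Points are genes (red or blue where 2-fold or more apart), black bars are list medians and dotted lines mark 2-fold; the distal patterning list (median 1.51) and the pharyngeal mesoderm list (median -1.24) lie at the ends, and some genes are in more than 1 list.

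The E10.5 arrays share no sample with the E9.7 pair and give a separate reading of the same contrast. Of the 198 genes 2-fold apart at E9.7, 184 were tested at E10.5 with limma, where 4.63% of all genes tested were called in either direction. Of 113 medial genes, 86 (76.1%) were called higher in medial tissue and 0 higher in lateral tissue, where 2.82% and 1.8% of all 11968 tested genes were called. Of 71 lateral genes, 62 (87.3%) were called higher in lateral tissue and 0 in the other direction. Among the 10982 counted and tested genes under 2-fold at E9.7, 359 (3.27%) were called at E10.5.

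In 172 of the 184 genes the E10.5 arrays did not overlap and pointed the same way, against 12.1% (medial) and 12.9% (lateral) of all tested genes. Median differences were 1.31 at E9.7 and 1.14 at E10.5 for the medial genes, and -1.47 and -1.57 for the lateral genes. In the E10.5 pair that shares the control-probe group of the E9.7 arrays (medial replicate 2 and lateral replicate 1), 68 of the 123 medial and 54 of the 75 lateral genes were 2-fold apart in the same direction, and 114 and 72 had the same sign. In the group of medial replicate 3 with lateral replicates 2 and 3, these counts were 79 and 52, and 119 and 72. Over all genes, 281 of 11473 counted in the pair of medial replicate 2 and lateral replicate 1 were 2-fold apart, in either direction. Shares over all genes were not taken for the same sign or for the other group of arrays. With these groups of arrays as a block, a fit chosen after seeing the data, 1254 genes were called at E10.5 in place of 554, among them 167 of the 2-fold genes in the same direction in place of 148. The 148 calls became 120 to 148 with 1 E10.5 array left out. On the values as deposited, where the array of low median is not brought to the scale of the others, 1 remained.

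Of the counted genes called at E10.5, 310 were higher in medial and 197 higher in lateral tissue. Of these, 299 and 179 had the same sign at E9.7, where the median difference of all counted genes was 0.012. In the same direction, 86 and 62 of them were 2-fold apart at E9.7, against 1.09% and 0.667% of all counted genes. Genes that were 2-fold apart at E9.7 and were not called at E10.5 included, in medial tissue, Col1a1, Jun, Gata2, Hsd11b2, Itga8, Tgfb1 and Nkx2-3. In lateral tissue they included Rspo2, Osr1, Efnb2, Rgmb and Foxl2. Some of these genes were called in other settings, among them Gata2 and Foxl2 with averaged probe sets. With the control-probe group as a block, Col1a1, Hsd11b2, Itga8, Tgfb1, Efnb2 and Rgmb were called in the direction of E9.7, and Rspo2 in the opposite one (0.48, adjusted p = 0.0200). A further 10 medial genes, among them Car4, Gata6, Hey2 and Igfbp1, and 4 lateral genes, among them Lhx2, were too dim at E10.5 to be tested. Car4 read 7.44 in medial and 4.75 in lateral tissue at E9.7, and 4.04, 3.94 and 4.02 against 4.09, 3.90 and 3.28 at E10.5.

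**Figure D4:**
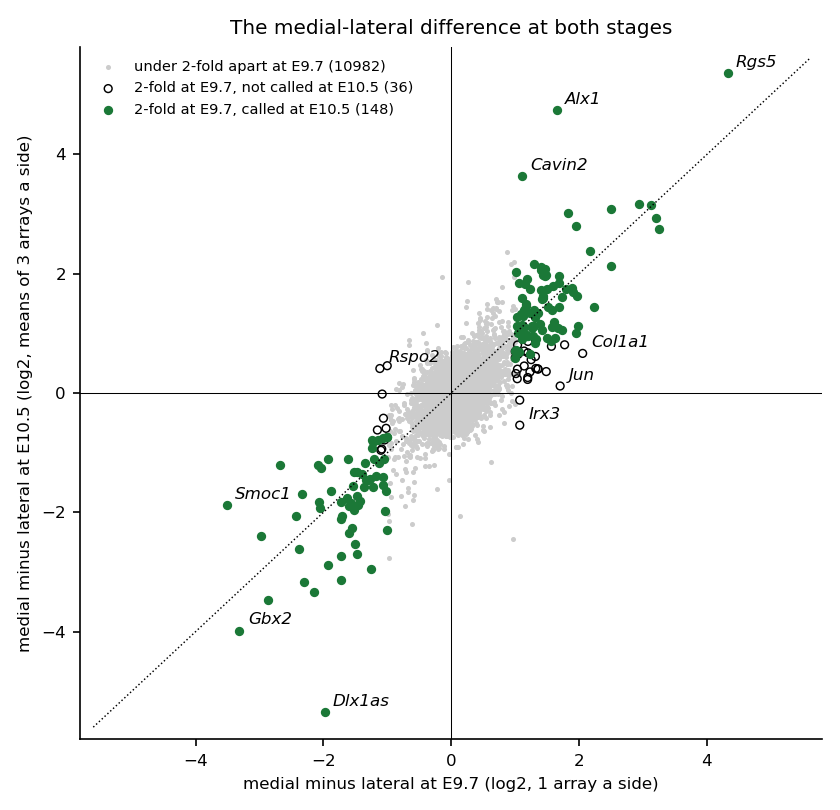
Medial minus lateral log2 difference at E10.5 (vertical axis, 3 arrays per side) against that at E9.7 (horizontal axis, 1 array per side). Green points are the 148 genes 2-fold apart at E9.7 and called at E10.5, open points those tested but not called, grey points all other genes, and the dotted line marks equal differences; all green points lie in the quadrants of equal sign.

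Whether the contrast differed between stages was examined as the E10.5 difference minus the E9.7 difference. Its E9.7 side rests on 1 array per piece, assumed to vary like the arrays of the replicated groups, so that single genes are given as values. Of 12054 genes, 0 were called (limma, 243 at an unadjusted p under 0.05), which does not show that the contrasts are alike. The smallest p belonged to Shox2, a homeobox gene of proximal arch mesenchyme, which was under the filter level on both E9.7 arrays. Its lateral signal was 4.72 at E9.7 and 8.63, 8.58 and 8.34 at E10.5. Its medial signal was 3.61 at E9.7 and 3.63, 4.20 and 3.63 at E10.5.

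Next in order of p were Fabp7, Dlx1as, Cavin2, Car4, Rspo2, Alx1, Bmper, Jun and Sostdc1. Alx1 read 6.04 and 4.4 at E9.7 and 8.85, 9.7 and 9.76 against 5.0, 4.59 and 4.48 at E10.5, so that its medial signal was higher on each E10.5 array. Whether any gene passed turned on the setting, and with 1 array per piece at E9.7 no single gene is read as having passed. Values are given for the genes on which this turned with 1 E10.5 array left out. Other genes on which it turned with centring, averaged probe sets or the control-probe group as a block included Bmper, Alx1, Cavin2 and Fabp7. The difference between stages was -3.78 for Shox2 without medial replicate 2. It was -3.07 for Dlx1as without medial replicate 3 and -2.68 for Car4 without lateral replicate 3.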

How the data were processed

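Total RNA from pieces of the mandibular arch (3 ug per sample, per the labels' protocols) was measured on Affymetrix arrays of 45101 probe sets. The deposited values are log2 signals made with Affymetrix Expression Console 1.1, per the submitters' processing notes; the algorithm is not given in the sources used here and the log base was inferred from the range. Values were quantile-normalized over the 11 arrays, because 2 arrays had far lower medians. Quantile normalization draws all arrays to the same distribution. Done over all 11 arrays, it made the 2-fold differences at E9.7 slightly smaller. The median ratio to them was 1.077 on the values as deposited and 1.073 with the 2 E9.7 arrays normalized alone. Of the probe sets, 34958 had 1 gene symbol, 932 several and 9211 none here. Symbols were updated through Entrez IDs to RefSeq (34754 probe sets), which left 18194 genes.

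Differences at E9.7 have no test. Genes entered the E10.5 test if their signal was at the filter level on 2 or more of the 8 arrays from groups with replicates. The test was limma 3.58.1 in R 4.3.3 (6 group means, 11 arrays, 5 residual degrees of freedom) and Benjamini-Hochberg adjustment over all genes tested, called under 0.05. The difference between stages was a contrast of the same fit over genes passing either filter. The procedure was tested on simulated data.

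Members, 38 gene lists (577 genes, 544 with a named probe set) and tests were chosen with earlier results of these data known. The named genes were the 15 highest and 15 lowest differences without predicted or unnamed transcripts, the 2-fold members and up to 4 further members of each list, all patterning genes, and the 10 genes of smallest p for the difference between stages. Not every gene the rule allows is printed, and further genes are marked or were chosen after their values were seen. Alternatives were other scalings, filters, thresholds, probe set summaries, variance options, the replicate number as a block, leaving out arrays and, chosen after seeing the data, the group of arrays by control probe sets as a fixed block (3 residual degrees of freedom).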

Additional observations from a re-analysis of the deposited data

Results flagged for a closer look

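For 2 genes that were 2-fold apart at E9.7, the E10.5 arrays lay apart in the opposite direction. Irx3 differed by 1.07 at E9.7 and by -0.54 at E10.5, where medial arrays read 8.39, 8.51 and 8.65 and lateral arrays 8.93, 9.08 and 9.16. The difference between stages was -1.61, with 1 array per piece at E9.7, and no gene was called for it in the main fit. Rspo2 differed by -1.12 at E9.7 and by 0.41 at E10.5, with 9.65, 9.85 and 9.91 in medial and 9.26, 9.45 and 9.47 in lateral tissue. Its difference between stages was 1.53, again with 1 array per piece at E9.7. With the control-probe group of arrays as a block, the E10.5 difference of Rspo2 passed (0.48, limma adjusted p = 0.0200) and that of Irx3 did not (-0.36, adjusted p = 0.209).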

How the results depend on the processing

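The count of 198 genes at E9.7 was 140 to 247 under the other scalings, filters and probe set summaries. It was 574 at a 1.5-fold and 59 at a 3-fold threshold. No 2-fold gene changed sign under the 3 other scalings or the mean of all probe sets, and 60 of the 198 fell under 2-fold with that mean. Of 93 named 2-fold genes this held for 21, and for 1 under each other scaling. The count of 554 genes called at E10.5 was 2 on the values as deposited, 358 with each array centred on its median and 308 to 528 with 1 E10.5 array left out. The lowest counts, 308 and 314, came without lateral replicate 3 and lateral replicate 2. The 148 genes shared by both stages became 1 on the values as deposited and 120 to 148 with 1 array left out. For the difference between stages, 5 genes passed with centring, 3 with the mean of all probe sets, and 0 to 1 with 1 array left out. With the replicate number as a block, 611 genes were called at E10.5, 150 of the 198 among them, and 0 for the difference between stages. Replicate numbers did not pair the samples: deviations of same-numbered E10.5 arrays correlated by 0.128, -0.294 and 0.478. Arrays of the same control-probe group correlated by 0.263 to 0.499. With that group as a block, 1254 genes were called at E10.5, 167 of the 198 among them, and 5 for the difference between stages. The number of arrays, 1 per side at E9.7, limits the precision, and signals under the filter level give uncertain differences. The cause of these changes was not tested.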

Other observations

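Genes in no list made up 119 of the 198 that were 2-fold apart at E9.7. On the medial side they included Pla2g7, which encodes a lipoprotein-associated phospholipase (7.12 in medial and 5.39 in lateral tissue, 1.73), Hsd11b2, which encodes an enzyme that inactivates glucocorticoids (8.85 and 7.07, 1.77), Kazald1, a secreted protein related to IGF-binding proteins (7.47 and 5.78, 1.69), and Synpo2, an actin-binding protein (6.22 and 4.39, 1.83). The heparan sulfate sulfotransferase genes Hs3st3a1 (1.25) and Hs3st3b1 (1.0) both passed 2-fold. On the lateral side were Trpm1, a cation channel gene (5.43 and 7.15, -1.72), Arg1, the gene of arginase (3.47 and 5.35, -1.88), and Lrig3 (7.55 and 9.14, -1.60), whose relative Lrig1 is described above. These genes were chosen after their values were seen. Synpo2 (3.01 ± 0.16, limma adjusted p = 2.45e-05), Kazald1 (1.95 ± 0.18, adjusted p = 0.00042), Trpm1 (-1.83 ± 0.21, adjusted p = 0.0012) and Lrig3 (-1.90 ± 0.22, adjusted p = 0.00124) were called at E10.5. Hsd11b2 was not called in the main fit (0.81 ± 0.22, limma adjusted p = 0.0888). With the control-probe group as a block it was (limma adjusted p = 0.00149).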
